A study of Oryctolagus cuniculus with 20 samples.

Results

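Collagen chains and the enzymes that modify them were followed in rabbit carotid artery that had been transplanted into a vein. Members were the genes whose symbol in the deposited table names a collagen chain (COL), a catalytic subunit of prolyl 4-hydroxylase (P4HA), a lysyl hydroxylase (PLOD), the cross-linking enzyme LOX or the collagen chaperone SERPINH1. The rule found 40 of 23669 genes, 33 chains and 7 enzymes, and no row carried the name SERPINH1. Levels are FPKM, fragments scaled to transcript length and to the mapped fragments of the library, summed over the transcripts of a gene, so that levels are per length. Levels of different genes also depend on how complete each gene's model is, so they are set side by side only as listed. Of the 40 members, 19 reached 1 FPKM in at least 4 libraries and were tested among 8657 such genes: 13 chains and 6 enzymes.

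The study compared RNA of whole vessel pieces from Oryctolagus cuniculus. A piece of common carotid artery was placed into a vein and taken out on day 14 or on day 30, and is called the graft here. The unoperated carotid artery of the opposite side was taken on the same days as the control, and is called the opposite artery. Unoperated external jugular vein formed the fifth group. Each group had 4 libraries, numbered 1 to 4. Libraries of a group are called biological replicates in the labels, but whether they come from separate rabbits is not stated, so that p-values measure only the spread between these samples, which may be technical. No agent, transgene or deletion is named, and the age and breed of the rabbits are not given in the sources used here. Every sample also carries the cell line name HASMC beside labels of rabbit tissue, and the vein samples carry the same treatment label as the arteries.

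The libraries differed in ways that touch the members. Read numbers are unknown, since the deposited table holds FPKM alone, and the FPKM of a library summed to between 327806 and 671582. Over 2960 genes with a mean of at least 10 FPKM, the median SD of log2 values within a group was 0.0960 in the opposite arteries of day 14, against 0.303, 0.214, 0.205 and 0.156 in the grafts of day 14, the opposite arteries of day 30, the grafts of day 30 and the vein. The opposite arteries of day 14 were thus nearly identical to each other, and in each of the other groups 1 library lay close to a weighted mean of the others (graft day 14 replicate 3, opposite artery day 30 replicate 2, graft day 30 replicate 4 and vein replicate 4, called mixture-like here). Counts of members are therefore also given with the opposite arteries of day 14 taken as 1 sample and without those 4 libraries. Markers of contractile smooth muscle (ACTA2, MYH11, TAGLN, LMOD1 and SMTN) summed to between 6017 and 8751 FPKM in the opposite arteries, with SMTN listed at 0 in every library. The endothelial marker PECAM1 was listed at 0 in all 8 opposite arteries.

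Collagens are trimers of chains that wind into a triple helix in the endoplasmic reticulum. Prolyl 4-hydroxylases make the helix stable, lysyl hydroxylases prepare it for sugars and for cross-links, and LOX joins finished molecules into fibres outside the cell. In the artery wall, fibrillar collagens of types I, III and V carry load, type IV forms the basement membrane around smooth muscle and under the endothelium, and type VIII is made by endothelium and by smooth muscle. Types XII and XIV sit on the surface of fibrils, type VI forms beaded filaments, and type XIII is a collagen of the cell membrane. Synthesis of type I collagen by smooth muscle and adventitial fibroblasts is a known part of the healing of grafted vessels.

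The 21 members below the filter were 20 chains and P4HA3, a prolyl hydroxylase subunit. Among them 7 were listed at 0 in every library: COL4A6, COL5A3, COL8A2, COL9A1, COL15A1, COL21A1 and P4HA3. A listed 0 can be a failed estimate. COL3A1, the chain of type III collagen, was listed at no more than 0.69 FPKM in any library, and COL4A1, the partner of COL4A2 in type IV collagen, at no more than 0.36 FPKM. In the RefSeq table of the rabbit assembly mOryCun1.1, COL3A1 lies next to COL5A2 and COL4A1 next to COL4A2, and both of those neighbours were abundant: COL5A2 had a mean of 142 FPKM and COL4A2 of 77.3 FPKM in the opposite arteries of day 14. COL4A3, of the kidney and alveolar basement membrane, came closest to the filter with a highest value of 1.66 FPKM. The fibrillar chains COL11A2 and COL24A1 peaked in the grafts of day 14, at 0.52 and 0.47 FPKM. Another 3 chains, of types IV (alpha 5), VII and X, are named only in the description column, stayed outside the rule, and reached 2.74, 2.18 and 0.97 FPKM.

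In the grafts of day 14, COL1A1, COL1A2, COL4A2, COL5A2, COL6A2, COL11A1 and COL12A1 and the lysyl hydroxylases PLOD1 and PLOD3 were higher than in the opposite artery, while COL13A1, COL14A1, COL28A1, PLOD2 and LOX were lower. Of the 19 members, 9 rose and 5 fell, where 53.5% of all genes tested passed, 36.5% higher and 17.0% lower. By day 30, 9 members were higher and 4 lower, where 37.6% of all genes passed, 26.0% higher and 11.6% lower. A member passed with an adjusted p under 0.05 in limma, adjusted by Benjamini-Hochberg over all 8657 genes, on log2(FPKM + 1). All log2 changes and folds below are on that scale, which understates the change of low genes. The median log2 change of the 19 members was 0.40 on day 14 and 0.26 on day 30, beside 0.26 and 0.18 over all genes. Groups did not overlap for 14 members on day 14 and for 13 on day 30, where this held for 50.1% and 34.5% of all genes. COL11A1 and COL4A4 entered the test only through grafts in which they were high. Of the other 17 members, 8 rose and 5 fell on day 14, and 7 rose and 4 fell on day 30.

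**Figure D1:**
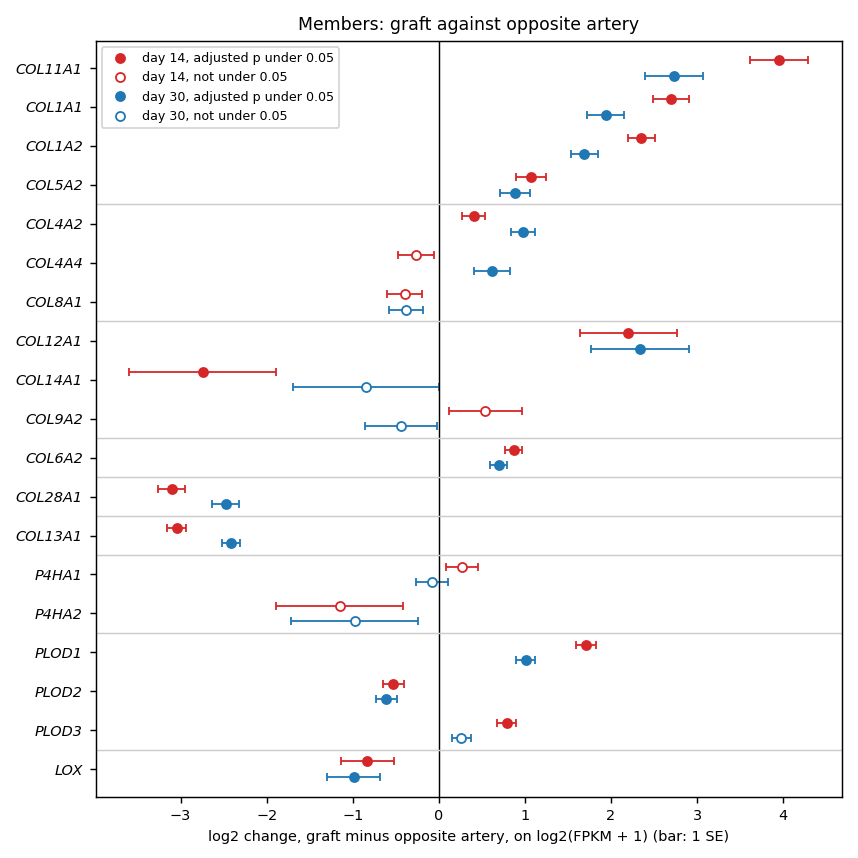
Log2 change of each of the 19 tested members, graft minus opposite artery, on log2(FPKM + 1), with day 14 in red and day 30 in blue, bars of 1 standard error from limma, and filled points where the adjusted p was under 0.05. Rows are grouped by role, and the fibrillar chains in the first block lie to the right of 0 on both days, while COL28A1 and COL13A1 lie near -3.10 and -3.04 on day 14.

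The count of day 14 fell to 9 (7 higher, 2 lower) with the opposite arteries of that day taken as 1 sample, and to 8 (6 higher, 2 lower) when the 4 mixture-like libraries were left out as well. The count of day 30 was then 10 (7 higher, 3 lower). No share of all genes stands beside these counts, which rest on fewer samples, so they describe the members alone. Dividing each library by its median of ratios moved the median change of all genes from 0.26 to 0.04 on day 14. The split of all genes that passed turned from 3161 higher and 1473 lower to 2369 and 2140 on that day. On day 30 it turned from 2253 and 1000 to 1719 and 1451. The members' split under that scaling was 8 higher and 6 lower on day 14, and 8 and 5 on day 30. No scaling turned the direction of a member that passed in graft against opposite artery. In bulk tissue, fewer cells of a type and less RNA per cell cannot be told apart.

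Of 9 fibrillar chains, 4 were tested. All 4 (COL1A1, COL1A2, COL5A2 and COL11A1) were higher in the grafts on both days, with no overlap between the groups. COL11A1 entered the test only through the grafts and could count only as higher. Over all genes, 36.5% were higher on day 14 and 26.0% on day 30, and groups were apart for 50.1% and 34.5%. COL1A2, a chain of type I collagen, was the most abundant member. It stood at 574, 584, 583 and 561 FPKM in replicates 1 to 4 of the opposite arteries of day 14, and at 2377, 2773, 3247 and 3472 FPKM in the grafts. On day 30 the opposite arteries had 1424, 1059, 1124 and 796 FPKM and the grafts 3805, 3231, 3422 and 3489 FPKM. Every graft lay above every opposite artery, and the opposite arteries of day 30 lay above those of day 14. The change was 2.35 on the log2 scale on day 14 (SE 0.16, 5.10-fold, adjusted p = 1.75e-09) and 1.69 on day 30 (SE 0.16, 3.23-fold, adjusted p = 2.13e-07).

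COL1A1, the other chain of type I collagen, was listed far lower. It stood at 15.6, 15.3, 17.6 and 12.4 FPKM in the opposite arteries of day 14 and at 116, 110, 105 and 85.4 FPKM in the grafts. On day 30 it stood at 34.9, 24.2, 22.8 and 13.1 FPKM in the opposite arteries and at 88.5, 73.4, 110.03 and 86.9 FPKM in the grafts. The lowest graft of either day was more than 2 times the highest opposite artery. Log2 changes were 2.70 on day 14 (SE 0.21, 6.49-fold, adjusted p = 1.10e-08) and 1.94 on day 30 (SE 0.21, 3.83-fold, adjusted p = 1.36e-06). COL1A2 exceeded COL1A1 by 20.4 to 60.8 times across the 20 libraries, although both chains enter the same molecule.

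COL5A2, a chain of type V collagen, which starts type I fibrils, rose less. The opposite arteries of day 14 lay between 140.5 and 143.8 FPKM, and the grafts had 192, 254, 379 and 425 FPKM. Day 30 showed 158, 138, 143 and 128 FPKM in the opposite arteries and 285, 273, 230 and 263 FPKM in the grafts. Grafts of day 14 were thus spread over a wider range than those of day 30. The log2 change was 1.07 on day 14 (SE 0.18, adjusted p = 5.73e-05) and 0.89 on day 30 (SE 0.18, adjusted p = 0.000627). The day 14 call was lost with the opposite arteries as 1 sample and the mixture-like libraries left out (adjusted p = 0.0879), and the day 30 call with every library scaled to the same sum (adjusted p = 0.0883).

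COL11A1, a chain of type XI collagen that is best known from cartilage and from developing fibrils, was close to 0 in every unoperated vessel. It did not exceed 0.33 FPKM in the 8 opposite arteries and 0.14 FPKM in the 4 veins. The grafts of day 14 had 5.47, 26.7, 23.8 and 27.8 FPKM, and those of day 30 had 7.77, 10.7, 4.81 and 7.85 FPKM. Replicate 1 of day 14 sat within the range of day 30, below the other 3 grafts of its group. The log2 change was 3.96 on day 14 (SE 0.34, adjusted p = 2.96e-08) and 2.74 on day 30 (SE 0.34, adjusted p = 5.08e-06). COL1A1, COL1A2 and COL11A1 passed on both days in each of the 34 settings tried.

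**Figure D2:**
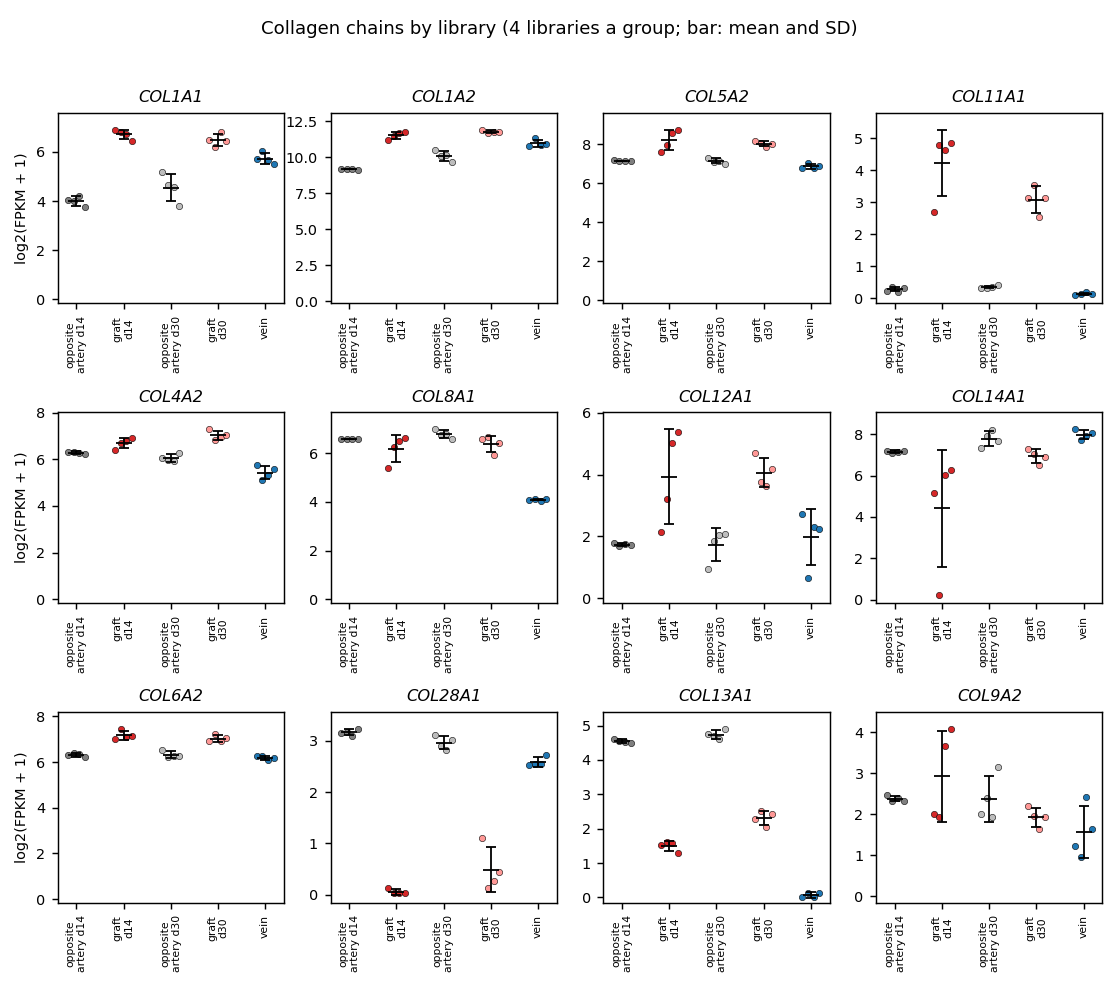
Level of 12 collagen chains in each library on log2(FPKM + 1), with opposite arteries in grey, grafts in red and vein in blue, 4 points a group and bars of mean and SD. COL1A1, COL1A2 and COL11A1 are higher in all 8 grafts than in any opposite artery, COL28A1 and COL13A1 are lower in all 8, and COL14A1 has 1 graft of day 14 at 0.18 FPKM.

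Of the 3 tested chains of basement membrane and networks, COL4A2 passed on both days, COL4A4 on day 30 and COL8A1 on neither. COL4A2, a chain of the common type IV collagen, had 79.3, 79.6, 76.5 and 73.8 FPKM in the opposite arteries of day 14 and 83.7, 102.1, 109 and 119 FPKM in the grafts. On day 30 the values were 64.9, 62.2, 59.4 and 76.7 FPKM against 154, 114, 122 and 131 FPKM. The groups lay apart on both days, by a narrow gap on day 14. The log2 change was 0.40 on day 14 (SE 0.14, adjusted p = 0.0194) and 0.97 on day 30 (SE 0.14, adjusted p = 2.22e-05). The day 14 call was lost under all 3 other scalings (0.10 to 0.15 on the log2 scale, adjusted p from 0.399 to 0.599) and without graft replicate 4 (adjusted p = 0.0648), and the day 30 call held in all 34 settings. Endothelial markers (PECAM1, CDH5, VWF, TEK, ERG and EMCN) summed to between 29.2 and 30.7 FPKM in the opposite arteries of day 14, 122 and 248 FPKM in the grafts, 32.4 and 74.2 FPKM in the opposite arteries of day 30 and 266 and 322 FPKM in those grafts, with 4 of 5 tested higher on both days. Their part in the rise of COL4A2 was not tested.

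COL4A4, a type IV chain of specialised basement membranes, was low throughout and reached 1 FPKM in 1 unoperated library and in the 4 grafts of day 30, so that it entered the test only through the group in which it was high. It had group means between 0.23 FPKM in the grafts of day 14 and 2.04 FPKM in the grafts of day 30. Its day 30 rise of 0.61 (SE 0.21, adjusted p = 0.0274) came with overlapping groups. That call was lost without graft replicate 1 (log2 change 0.37, adjusted p = 0.101) or graft replicate 4 (adjusted p = 0.0514), and without replicate 1, 2 or 4 of the opposite arteries (adjusted p = 0.0822, 0.0598 and 0.0619). On day 14 its change was -0.26 (adjusted p = 0.303).

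COL8A1, a chain of type VIII collagen, did not pass on either day. The opposite arteries of day 14 had 95.0, 94.8, 93.9 and 96.5 FPKM and the grafts 40.7, 75.3, 89.9 and 96.7 FPKM. On day 30 there were 125, 108, 110.3 and 94.2 FPKM in the opposite arteries and 94.2, 100.04, 59.8 and 85.3 FPKM in the grafts. Groups overlapped on both days. Log2 changes were -0.40 (SE 0.20, adjusted p = 0.110) and -0.38 (SE 0.20, adjusted p = 0.156). COL8A1 passed as lower with median-of-ratios scaling on both days (log2 -0.70, adjusted p = 0.00397, and -0.57, adjusted p = 0.0195). It also passed as lower on day 14 with quantile scaling (-0.66, adjusted p = 0.00598) and without graft replicate 4 (adjusted p = 0.0371). On day 30 it passed as lower with library weights (-0.34, adjusted p = 0.00767). The same held without graft day 14 replicate 1 (adjusted p = 0.0281) or replicates 1 and 2 (adjusted p = 0.0201), which enter the shared spread.

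The chains on fibril surfaces moved in opposite directions. COL12A1, which is found at sites under tension, had between 2.24 and 2.44 FPKM in the opposite arteries of day 14 and 3.39, 8.36, 31.5 and 40.5 FPKM in the grafts. Day 30 gave 0.94, 2.62, 3.09 and 3.24 FPKM in the opposite arteries and 24.9, 12.5, 11.5 and 17.1 FPKM in the grafts. Grafts were above all opposite arteries on both days, with a more than 10-fold spread among those of day 14. COL12A1 rose by 2.20 on day 14 (SE 0.57, adjusted p = 0.00320) and by 2.33 on day 30 (SE 0.57, adjusted p = 0.00325). With the opposite arteries of day 14 as 1 sample the day 14 call was lost (adjusted p = 0.113), and with the mixture-like libraries left out too, so was that of day 30 (adjusted p = 0.0594).

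COL14A1, a fibril-surface chain of mature connective tissue and of adventitial fibroblasts, fell on day 14. It had 147, 136, 140.1 and 147 FPKM in the opposite arteries and 34.2, 0.18, 64.6 and 75.2 FPKM in the grafts. On day 30 it had 162, 240, 297 and 199.6 FPKM in the opposite arteries and 157, 131, 89.1 and 118 FPKM in the grafts. All grafts were below all opposite arteries on both days, and graft day 14 replicate 2 was close to 0. That library also listed P4HA2 and the integrin chain ITGB1 at 0, the second of which had between 161 and 167 FPKM in the opposite arteries of day 14. The log2 change was -2.75 on day 14 (SE 0.85, adjusted p = 0.0110) and -1.35 without graft replicate 2 (adjusted p = 0.000178). On day 30 the change of -0.85 did not pass (SE 0.85, adjusted p = 0.477), but passed without graft day 14 replicate 2, which enters the shared spread (same change, adjusted p = 0.00649) and with only the groups of that day fitted (adjusted p = 0.0217). The day 14 call was lost with the opposite arteries as 1 sample (adjusted p = 0.187) and when only the groups compared were fitted.

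Summed markers of fibroblasts and adventitia (PDGFRA, PI16, DPT, LUM and DCN) were between 1127 and 1300 FPKM in the opposite arteries of day 14, 359 to 689 in the grafts, 804 to 1771 in the opposite arteries of day 30 and 1062 to 1218 in those grafts. Of these 5 markers, 3 of which also count among the partners in fibril assembly below, 2 were lower on day 14 and 1 was higher on day 30. Their part in the changes of COL14A1 and of the type I chains was not tested. COL9A2, a chain of type IX collagen, which decorates cartilage fibrils, was between 0.96 and 16.0 FPKM in all libraries and did not pass on either day (log2 0.54, adjusted p = 0.298, and -0.44, adjusted p = 0.455).

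COL6A2, a chain of the type VI beaded filaments around cells, had 77.4, 82.6, 79.6 and 73.7 FPKM in the opposite arteries of day 14 and 128, 173, 138 and 139.5 FPKM in the grafts. On day 30 it had 91.7, 74.8, 75.7 and 77.01 FPKM in the opposite arteries and 121, 147, 119.7 and 132 FPKM in the grafts. All grafts lay above all opposite arteries. COL6A2 rose by 0.87 on day 14 (SE 0.10, adjusted p = 8.98e-07) and by 0.70 on day 30 (SE 0.10, adjusted p = 2.32e-05), and both calls held in all 34 settings.

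COL13A1 and COL28A1 fell most among the members on day 14. COL13A1, the membrane collagen that is best known from the neuromuscular junction, had 23.4, 22.6, 22.0 and 21.6 FPKM in the opposite arteries of day 14 and 1.87, 2.07, 1.98 and 1.46 FPKM in the grafts. On day 30 it had 25.7, 25.0, 23.2 and 28.8 FPKM against 3.88, 4.71, 3.15 and 4.33 FPKM. No graft came near an opposite artery, and the grafts of day 30 lay above those of day 14. Log2 changes were -3.04 (SE 0.11, adjusted p = 1.30e-12) and -2.42 (SE 0.11, adjusted p = 5.20e-11). Beside it, the contractile smooth muscle markers summed to 608 to 923 FPKM in the grafts of day 14 and 1343 to 1765 FPKM in those of day 30, and their 4 tested genes were lower on both days. Skeletal muscle markers (CKM, TNNC1, TCAP and others) summed to between 470 and 621 FPKM in the opposite arteries and between 6.92 and 78.7 FPKM in the grafts, with 3 of 3 tested lower on both days. The part of either cell type in the fall of COL13A1 was not tested.

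COL28A1, a collagen that is best known from peripheral nerve, was between 6.08 and 8.40 FPKM in the opposite arteries, at most 0.10 FPKM in the grafts of day 14 and between 0.09 and 1.16 FPKM in those of day 30. Its log2 changes were -3.10 (SE 0.16, adjusted p = 5.45e-11) and -2.47 (SE 0.16, adjusted p = 2.32e-09). S100B and CDH19, which Schwann cells express, had between 21.6 and 31.4 FPKM and between 12.4 and 14.4 FPKM in the opposite arteries of day 14, and at most 1.96 FPKM and a listed 0 in the grafts. On day 30 S100B had a listed 0, 25.08, 6.19 and 31.65 FPKM in the opposite arteries and 4.49, 9.47, 4.13 and 1.68 FPKM in the grafts. Its groups overlapped on that day, and it did not pass. CDH19 was also listed at 0 in the opposite arteries of day 30 and in the vein. The part of such cells in the fall of COL28A1 was not tested. The falls of COL28A1 held in all 34 settings on both days, and those of COL13A1 in all 33 that could be run for it.

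Of the 6 enzymes tested, 2 rose and 2 fell on day 14, where 53.5% of all genes passed, and 1 rose and 2 fell on day 30, where 37.6% did. P4HA1, the main catalytic subunit of prolyl 4-hydroxylase, ranged between 11.0 and 28.6 FPKM over all libraries, with overlapping groups and changes of 0.27 (SE 0.19, adjusted p = 0.235) and -0.08 (SE 0.19, adjusted p = 0.788). P4HA2, its second isoform, ranged from a listed 0 to 19.8 FPKM and did not pass either (log2 -1.15, SE 0.74, adjusted p = 0.199, and -0.98, SE 0.74, adjusted p = 0.326). The grafts of day 14 held both its extremes, a listed 0 in replicate 2 and 18.8 and 19.8 FPKM in replicates 3 and 4.

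**Figure D3:**
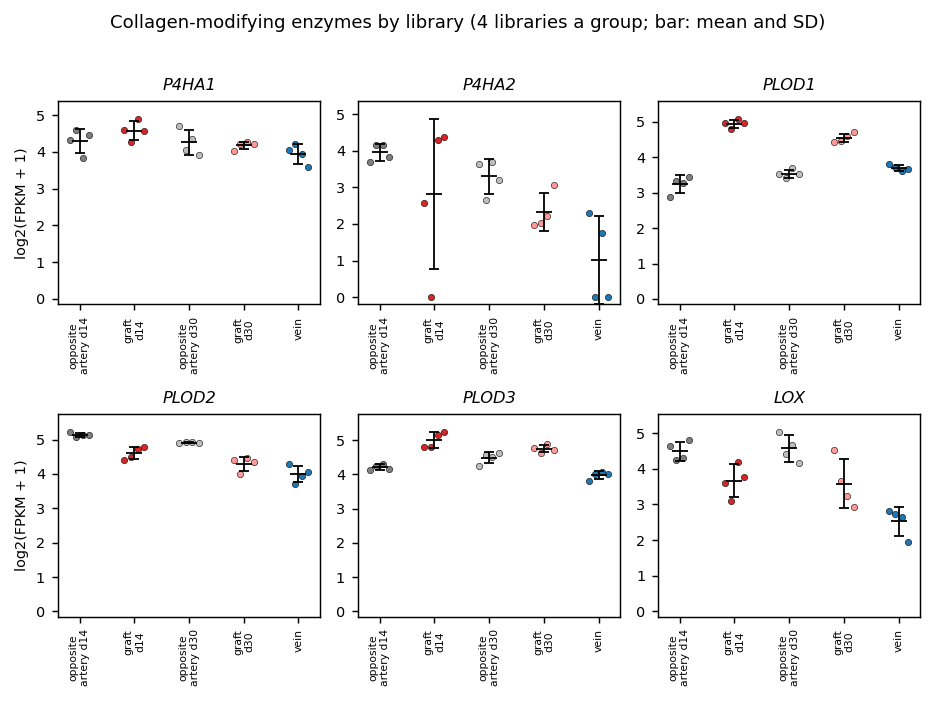
Level of the 6 tested enzymes in each library on log2(FPKM + 1), with opposite arteries in grey, grafts in red and vein in blue, 4 points a group and bars of mean and SD. PLOD1 is higher and PLOD2 lower in all 8 grafts than in the opposite arteries of the same day, and the points of P4HA1 overlap between groups.

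Lysyl hydroxylases changed in opposite directions. PLOD1, which acts on lysines of the helix, had 6.34, 9.10, 8.75 and 9.93 FPKM in the opposite arteries of day 14 and 30.1, 26.7, 32.7 and 30.1 FPKM in the grafts. On day 30 it had 10.5, 9.65, 12.0 and 10.5 FPKM against 20.6, 20.9, 23.1 and 25.0 FPKM. Grafts lay above opposite arteries throughout. PLOD1 rose by 1.71 on day 14 (SE 0.11, 3.27-fold, adjusted p = 1.39e-09) and by 1.01 on day 30 (SE 0.11, 2.01-fold, adjusted p = 1.79e-06), and both held in all 34 settings.

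PLOD2, which acts on lysines of the telopeptides and is linked to the cross-links of fibrosis, fell. It had 36.7, 32.8, 33.8 and 34.0 FPKM in the opposite arteries of day 14 and 20.3, 21.6, 25.4 and 26.7 FPKM in the grafts. The values of day 30 were 28.9, 29.3, 29.2 and 28.8 FPKM against 20.02, 14.9, 20.9 and 19.4 FPKM. All 8 grafts were below all 8 opposite arteries. Log2 changes were -0.53 (SE 0.12, adjusted p = 0.00118) and -0.61 (SE 0.12, adjusted p = 0.000594). The call of day 14 was lost with the opposite arteries as 1 sample (adjusted p = 0.0733), and that of day 30 held in all 34 settings.

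PLOD3, which hydroxylates lysines and also adds sugars to them, had 16.7, 18.2, 18.9 and 16.9 FPKM in the opposite arteries of day 14 and 27.1, 27.1, 34.5 and 37.1 FPKM in the grafts. On day 30 the opposite arteries had 18.1, 22.7, 21.8 and 23.7 FPKM and the grafts 26.2, 23.9, 28.6 and 25.4 FPKM. The groups did not overlap on either day, although the gap was small on day 30. The rise of 0.79 on day 14 (SE 0.11, adjusted p = 9.47e-06) held in all 34 settings, and the change of 0.26 on day 30 did not pass (SE 0.11, adjusted p = 0.0711).

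LOX, which oxidises lysines to start cross-links, was lower in the grafts. The opposite arteries of day 14 had 23.96, 18.0, 18.7 and 27.0 FPKM and the grafts 11.2, 7.55, 17.5 and 12.7 FPKM. On day 30 there were 32.1, 20.6, 24.6 and 16.9 FPKM in the opposite arteries and 22.0, 11.7, 8.42 and 6.59 FPKM in the grafts. The groups were just apart on day 14, and graft replicate 1 of day 30 lay within the range of the opposite arteries. Log2 changes were -0.83 (SE 0.31, adjusted p = 0.0308) and -0.99 (SE 0.31, adjusted p = 0.0169). Both calls hung on single libraries. That of day 14 was lost without opposite artery replicate 1 or 4 (adjusted p = 0.0680 and 0.0854) or graft replicate 1 or 2 (adjusted p = 0.0583 and 0.105). That of day 30 was lost without opposite artery replicate 1 (adjusted p = 0.0575) or graft replicate 3 or 4 (adjusted p = 0.0530 and 0.0695).

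Members were also compared between day 14 and day 30, where a change that did not pass need not be absent. The graft effect, graft against opposite artery, differed between the days for 3 of 19 members, 1 upward and 2 downward, where 12.9% of all genes passed, 5.38% upward and 7.57% downward. The effect on COL13A1 was less negative on day 30 by 0.63 (SE 0.15, adjusted p = 0.0117). This did not pass with a pseudocount of 0.1 (0.89, adjusted p = 0.0684), with TPM scaling (adjusted p = 0.0883) or with the mixture-like libraries removed (adjusted p = 0.0895). The effect on PLOD1 was smaller by a difference of -0.70 (SE 0.16, adjusted p = 0.00827), and that on PLOD3 by -0.52 (SE 0.16, adjusted p = 0.0337). The PLOD3 call was lost on leaving out any of 11 libraries, namely replicates 1, 2 and 4 of the opposite arteries of day 14, 3 and 4 of the grafts of day 14, 2, 3 and 4 of the opposite arteries of day 30, and 1, 2 and 4 of the grafts of day 30 (adjusted p from 0.0504 to 0.0707). With the opposite arteries of day 14 as 1 sample no member passed. For COL1A2 the difference was -0.66 (adjusted p = 0.0602) and for COL11A1 -1.22 (adjusted p = 0.0994). COL11A1 passed without graft day 14 replicate 1 (-1.74, adjusted p = 0.000155), COL1A1 without opposite artery day 30 replicate 4 (-1.01, adjusted p = 0.0116), and COL1A2 without either of these or vein replicate 2 (adjusted p = 0.0269, 0.0168 and 0.0479). The basement membrane chains and COL28A1 passed upward on leaving out single libraries: COL4A2 without graft day 14 replicate 4, opposite artery day 30 replicate 4, graft day 30 replicate 2 or vein replicate 1 or 2 (adjusted p from 0.0405 to 0.0481), COL4A4 without opposite artery day 30 replicate 3 or graft day 30 replicate 2 or 3 (0.0296 to 0.0446), and COL28A1 without graft day 30 replicate 2 (0.0270). The count rose to 5 without graft day 14 replicate 1, opposite artery day 30 replicate 4, graft day 30 replicate 2 or vein replicate 2, and the split was 2 upward and 1 downward under median-of-ratios and quantile scaling.

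Within the grafts, COL4A4 (log2 1.24, SE 0.21, adjusted p = 0.000777) and COL13A1 (log2 0.81, SE 0.11, adjusted p = 9.92e-05) were higher on day 30 than on day 14, and COL11A1 (log2 -1.15, SE 0.34, adjusted p = 0.0280) and PLOD1 (log2 -0.40, SE 0.11, adjusted p = 0.0232) were lower. These 4 of 19 compare with 16.3% of all genes, 8.01% higher and 8.31% lower. Groups were apart for 4 members, where 15.7% of all genes had groups apart. COL4A4 is in both counts, although it entered the test only through the grafts of day 30, the group in which it was high. The filter thus favoured a call of COL4A4 as higher. The type I chains did not pass. COL11A1 lost its call without graft day 14 replicate 2, 3 or 4 (adjusted p = 0.0718, 0.0824 and 0.0866) or graft day 30 replicate 1, 3 or 4 (adjusted p = 0.0582, 0.0826 and 0.0540). PLOD1 lost its call without graft day 14 replicate 3 (adjusted p = 0.0713) or graft day 30 replicate 1 or 2 (adjusted p = 0.0712 and 0.0519). COL14A1 passed as higher on day 30 on leaving out any 1 graft of day 14, at 1.13 without replicate 2 (adjusted p = 0.00505). COL9A2 passed as lower without graft day 14 replicate 1 or 2 (adjusted p = 0.0421 and 0.0400), PLOD2 as lower without graft day 14 replicate 1 (0.0489), and COL28A1 as higher without graft day 30 replicate 2 (0.0224). The count was 7 without graft day 14 replicate 1 and 2 without graft day 30 replicate 1, and the split was 2 and 0 with each library scaled to the same sum and 4 and 1 under quantile scaling.

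The opposite arteries were not static either. COL1A2 was higher on day 30 than on day 14 by 0.90 (SE 0.16, adjusted p = 0.00134, 4 of 4 libraries above the highest of day 14), and it was the only member of 19 to pass, where 10.7% of all genes passed, 6.28% higher and 4.45% lower. That call was lost with the opposite arteries of day 14 as 1 sample. Groups were apart for 4 members, beside 22.8% of all genes. Without opposite artery day 30 replicate 4, COL1A1 passed too (log2 0.79, adjusted p = 0.00772).

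Unoperated vein had more COL1A1 and COL1A2 than unoperated artery and less COL4A2, COL8A1 and COL13A1. Of 19 members 3 were higher and 8 lower than in the mean of both opposite-artery groups, where 37.1% of all genes passed, 25.2% higher and 12.0% lower, and groups were apart for 11 members beside 24.2% of all genes. COL1A2 had 1748, 2528, 1856 and 1967 FPKM in the vein (log2 change 1.35, SE 0.14, adjusted p = 5.22e-07) and COL1A1 had 51.4, 64.9, 49.9 and 44.5 FPKM (1.45, SE 0.18, adjusted p = 7.03e-06). PLOD1 passed as higher by 0.31 (SE 0.10, adjusted p = 0.0176), with overlapping groups, and lost its call without vein replicate 1 (adjusted p = 0.0624) and under all 3 other scalings. COL8A1 had only 16.1, 16.3, 15.6 and 16.2 FPKM in the vein, beside a mean of 102.2 FPKM in the 8 opposite arteries (-2.59, SE 0.18, adjusted p = 3.31e-09).

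COL13A1 was listed at 0 in vein replicates 1 and 3 and at 0.10 FPKM in the other 2 (log2 change -4.57, SE 0.09, adjusted p = 4.24e-16). COL4A2 (-0.74, SE 0.12, adjusted p = 8.61e-05), COL28A1 (-0.47, SE 0.14, adjusted p = 0.0105), PLOD2 (-1.02, SE 0.10, adjusted p = 5.46e-07) and PLOD3 (-0.38, SE 0.10, adjusted p = 0.00443) were also lower. The COL28A1 call was lost with a pseudocount of 0.1 (adjusted p = 0.219) and with the opposite arteries of day 14 as 1 sample (adjusted p = 0.0816), and that of PLOD3 under TPM scaling (adjusted p = 0.104). LOX was lower too, with 6.06, 5.60, 5.22 and 2.83 FPKM (-2.01, SE 0.27, adjusted p = 1.21e-05), as was P4HA2, which was listed at 0 in vein replicates 2 and 4 (-2.62, SE 0.64, adjusted p = 0.00340). COL9A2 passed as lower without vein replicate 3 (adjusted p = 0.0370), and P4HA1 without opposite artery day 14 replicate 3 (adjusted p = 0.0442). Median-of-ratios scaling gave a split of 2 higher and 12 lower, and moved that of all genes from 2178 higher and 1036 lower to 1617 and 1527. Endothelial markers summed to between 555 and 720.5 FPKM in the vein and between 29.2 and 74.2 FPKM in the opposite arteries. Their part in these differences was not tested.

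The grafts were also set beside the vein. On day 14, 15 of 19 members were higher and 2 lower in the graft, where 43.3% of all genes passed, 25.9% higher and 17.5% lower. On day 30 the counts were 13 and 1, where 33.4% passed, 19.2% higher and 14.2% lower. Groups were apart for 14 and 15 members, beside 36.9% and 34.3% of all genes. COL11A1 and COL4A4 entered the test only through grafts in which they were high. COL11A1 counted as higher and apart on both days, and COL4A4 on day 30. These comparisons share the graft libraries with those against the opposite artery, so the values are given side by side. COL1A2, 2.35 above the opposite artery on day 14, was 0.55 above the vein (SE 0.16, adjusted p = 0.00926), with overlapping groups. That call was lost under TPM scaling (0.23, adjusted p = 0.436), under quantile scaling (adjusted p = 0.102), with only the groups compared (adjusted p = 0.0544) and with the mixture-like libraries removed (adjusted p = 0.0903). COL11A1 was 4.10 above the vein (SE 0.34, adjusted p = 4.16e-08), and COL8A1, which did not pass against the artery, was 2.10 above it (SE 0.20, adjusted p = 2.62e-07). LOX, lower than in the artery, was 1.14 above the vein (SE 0.31, adjusted p = 0.00631), a call lost under TPM scaling and without the mixture-like libraries (adjusted p = 0.0546 and 0.0737). COL13A1, the lowest of the 19 in the vein, was 1.44 above it (SE 0.11, adjusted p = 1.51e-08), and COL28A1 was -2.53 from it (SE 0.16, adjusted p = 1.57e-09). COL14A1 differed by -3.55 (SE 0.85, adjusted p = 0.00247) and by -2.16 without graft day 14 replicate 2. COL9A2, higher by 1.36 (adjusted p = 0.0146), lost its call without graft day 14 replicate 3 or 4 or vein replicate 2 (adjusted p = 0.0566, 0.0607 and 0.05), and on day 30 LOX, higher by 1.06 (adjusted p = 0.0135), without graft replicate 1 or vein replicate 4 (adjusted p = 0.0501 and 0.0531). P4HA2 passed as higher on day 14 without graft replicate 2 (2.73, adjusted p = 0.000584) or vein replicate 1 (2.22, adjusted p = 0.0302), and on day 30 COL14A1 as lower without graft day 14 replicate 2 (adjusted p = 0.00181) and PLOD2 as higher without graft replicate 2 or vein replicate 1 (adjusted p = 0.0153 and 0.0204).

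As listed, COL1A2 took a larger share of the collagen message in the grafts than in the opposite arteries. The shares rest on the levels in the table, in which COL3A1 and COL4A1 were near 0 and outside the sum and COL1A1 far below COL1A2. Summed over the 13 tested chains, the level was 1163 ± 13.2 FPKM in the opposite arteries of day 14 (mean ± SD, n = 4 libraries, as for the values that follow), 3804 ± 680 in the grafts, 1786 ± 278 in the opposite arteries of day 30, 4342 ± 290 in the grafts and 2589 ± 326 in the vein. COL1A2 made up 49.5% ± 0.46, 78.2% ± 1.17, 61.1% ± 5.07, 80.3% ± 1.31 and 77.9% ± 3.5 of those sums. The share of COL1A2 in the grafts did not overlap with that in the opposite arteries of the same day, and overlapped with that in the vein. COL14A1 held 12.2% ± 0.56 and 12.8% ± 3.53 in the opposite arteries of days 14 and 30, 1.09% ± 0.76 and 2.84% ± 0.54 in the grafts and 9.94% ± 2.41 in the vein. COL8A1, whose own level did not pass, held 8.18% ± 0.18 in the opposite arteries of day 14, 1.95% ± 0.39 in those grafts, in which the sum was larger, and 0.63% ± 0.07 in the vein. These shares were chosen after the values were seen and are a description with no test.

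**Figure D4:**
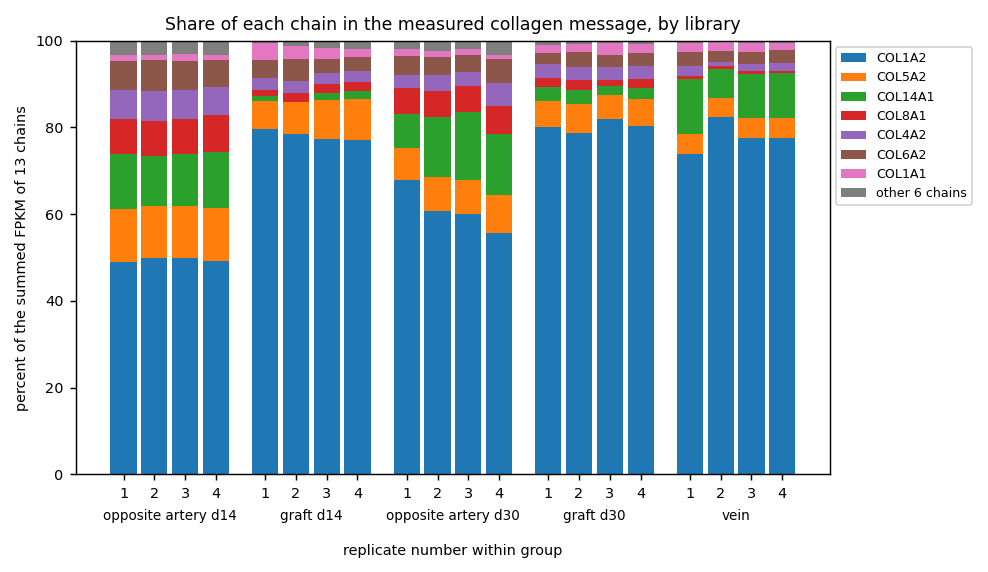
Share of each chain in the summed FPKM of the 13 tested chains, in percent, for each of the 20 libraries, with replicate numbers 1 to 4 within each group. COL1A2 in blue takes 49.5% of the bar on average in the opposite arteries of day 14 and 78.2% and 80.3% in the grafts of days 14 and 30, and COL14A1 in green takes 1.09% and 2.84% in the grafts, 9.94% in the vein and 12.2% and 12.8% in the opposite arteries.

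Genes that serve collagen elsewhere in its life were taken by name from lists of partner genes. Among partners in hydroxylation and folding, 8 of 11 tested rose and 1 fell on day 14, and 2 rose and 2 fell on day 30, with medians of 0.58 and -0.01 beside 0.26 and 0.18 over all genes. For this and the other lists, 36.5% of all genes were higher and 17.0% lower on day 14, and 26.0% and 11.6% on day 30. Some day 14 calls of these partners were lost under both median-of-ratios and TPM scaling (adjusted p from 0.124 to 0.512). In the lists for secretion, propeptide removal, fibril assembly, receptors and breakdown some calls were also lost under other scalings. The list counts thus depend on the scaling. P3H1, a prolyl 3-hydroxylase, rose from a mean of 10.4 to 31.5 FPKM on day 14 (log2 1.495, SE 0.17, adjusted p = 7.01e-07), and PPIB, the cyclophilin of the same complex, from 257 to 528 FPKM (1.02, SE 0.10, adjusted p = 1.67e-07). FKBP10, a collagen chaperone, rose by 1.27 on day 14 and stood at -0.27 on day 30 (adjusted p = 0.130), a difference between the days of -1.54 (adjusted p = 9.74e-05). P3H2, a prolyl 3-hydroxylase of basement membrane collagen, fell by 2.21 on day 14 and by 1.32 on day 30 (adjusted p = 1.58e-10 and 1.97e-07).

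Among genes for procollagen secretion, 5 of 9 tested rose and 1 fell on day 14, where 53.5% of all genes passed, and 3 rose on day 30, where 37.6% did. CREB3L1, a transcription factor that drives collagen genes, rose from 4.99 to 33.6 FPKM on day 14 (log2 2.53, SE 0.22, adjusted p = 4.20e-08) and from 11.5 to 27.0 FPKM on day 30 (1.26, adjusted p = 0.000213). CREB3L2, its relative, was the one that fell, from a mean of 17.3 to 0.12 FPKM with 3 of 4 grafts listed at 0, as were 3 of 4 opposite arteries of day 30. For the removal of propeptides, 2 of 4 tested rose and 1 fell on both days. PCOLCE2, an enhancer of C-proteinase, fell by 3.21 on day 14 and 1.92 on day 30 (adjusted p = 6.40e-10 and 7.27e-07), while FURIN, which activates proteinases, rose by 1.49 and 1.20 (adjusted p = 0.000391 and 0.00381). LOXL1, a LOX relative of elastic fibres, rose by 1.55 on day 14 (SE 0.08, adjusted p = 4.35e-11) and by 0.32 on day 30 (adjusted p = 0.00318). The day 30 call was lost with each library scaled to the same sum (adjusted p = 0.811) and under median-of-ratios scaling (adjusted p = 0.245). The ratio of LOXL1 to LOX was 1.11 ± 0.21 in the opposite arteries and 6.51 ± 2.81 in the grafts of day 14 (mean ± SD, n = 4 libraries). On day 30 it was 1.68 ± 0.38 and 4.835 ± 2.37, with overlapping groups (lowest graft 1.98, highest opposite artery 2.11). In the vein it was 6.84 ± 2.52.

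Of 14 tested partners in fibril assembly, 4 rose and 7 fell on day 14 (36.5% and 17.0% of all genes), and 5 rose and 4 fell on day 30 (26.0% and 11.6% of all genes). FN1, the fibronectin on which collagen fibrils assemble, rose by 2.36 on day 14 (adjusted p = 1.98e-06), and FMOD, a proteoglycan that limits fibril width, fell by 1.20 on day 14 and by 3.05 on day 30 (adjusted p = 2.70e-05 and 1.34e-09). Of 7 tested collagen receptors 2 rose and 3 fell on day 14, where 53.5% of all genes passed, and 1 rose and 1 fell on day 30, where 37.6% did. DDR2, a receptor kinase for fibrillar collagen, fell by 1.19 and 0.63 (adjusted p = 1.98e-05 and 0.00875), and MRC2, which takes up collagen fragments, rose by 0.84 on day 14 (adjusted p = 0.000642) and stood at 0.41 on day 30 (adjusted p = 0.0783). The day 14 call of MRC2 was lost under TPM scaling (adjusted p = 0.0842). Of 14 tested genes of collagen breakdown 13 rose on day 14 and 11 on day 30, and none passed as lower, beside 36.5% and 26.0% of all genes higher. MMP1, MMP3 and MMP13 entered the test only through the grafts and could count only as higher. Among the other 11, which also reached 1 FPKM in at least 4 unoperated libraries, 10 rose on day 14 and 9 on day 30. MMP14, a membrane collagenase, went from a mean of 13.7 to 204 FPKM on day 14 (log2 3.80, SE 0.14, adjusted p = 2.47e-12) and from 16.5 to 97.0 FPKM on day 30 (2.46, adjusted p = 9.35e-10). CTSK, a cathepsin that cuts helical collagen, rose by 1.59 on day 14 (adjusted p = 7.41e-06) and by 0.68 on day 30 (adjusted p = 0.0193). Its day 30 call was lost under all 3 other scalings (adjusted p from 0.0546 to 0.376).

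**Figure D5:**
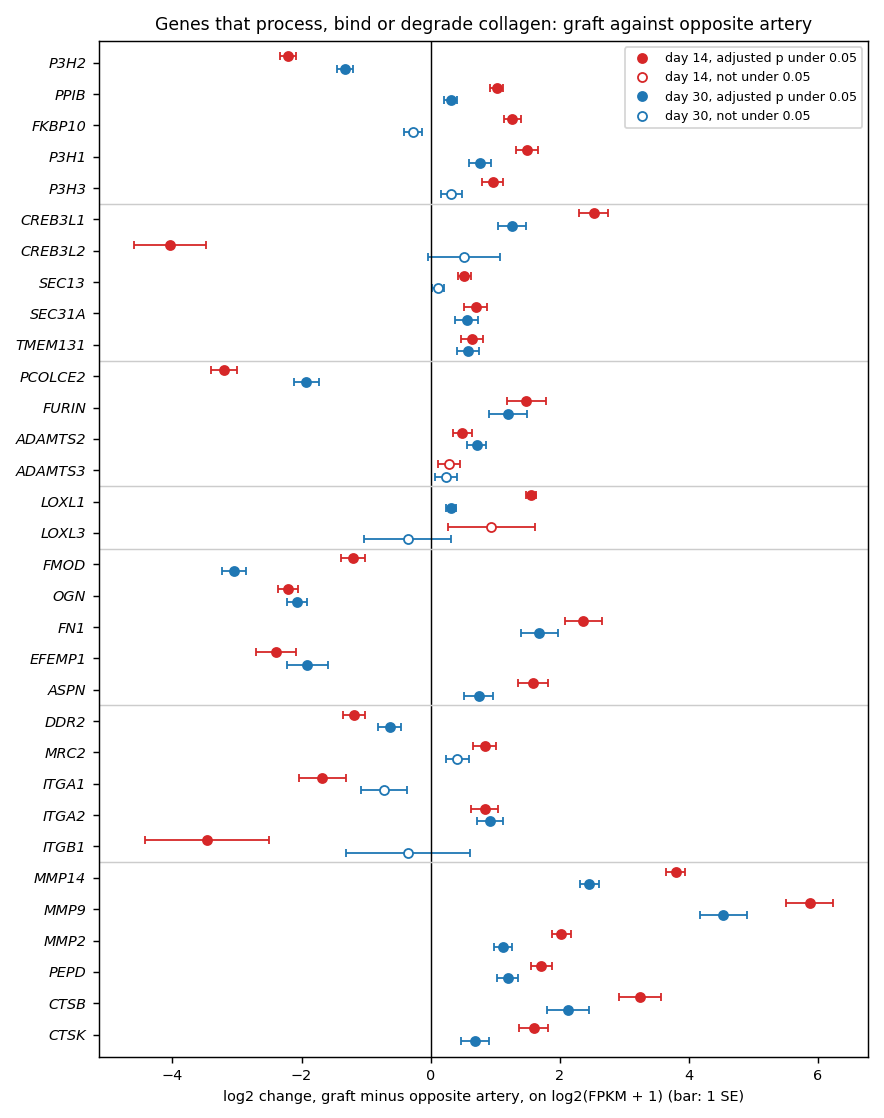
Log2 change, graft minus opposite artery, on log2(FPKM + 1), of genes that fold, secrete, trim, cross-link, assemble, bind or degrade collagen, with day 14 in red, day 30 in blue, bars of 1 standard error and filled points where the adjusted p was under 0.05. The last block, genes of breakdown such as MMP14 at 3.80 and 2.46, lies to the right of 0 on both days, and PCOLCE2 lies to the left at -3.21 and -1.92.

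Macrophage markers (CD68, CD14, CD163, CSF1R, MSR1 and AIF1) were set beside the genes of breakdown. Of 5 tested, 4 were higher on both days, and CD163 passed on neither. The day 30 call of CSF1R was lost in 13 of 32 settings. All 6 markers together summed to between 3.21 and 19.3 FPKM in the opposite arteries, where CD68 and AIF1 were listed at 0. The sums were between 189 and 476 FPKM in the grafts of day 14 and between 99.6 and 246 FPKM in those of day 30. Markers of T and B cells (CD3D, CD3E, CD2, CD79B and JCHAIN) summed to at most 13.9 FPKM in the opposite arteries. In the grafts they summed to between 43.0 and 434 FPKM, and JCHAIN alone had 413 FPKM in the highest, day 30 replicate 3. Markers of fat cells (ADIPOQ, FABP4, LEP and CIDEC) summed to between 41.0 and 354 FPKM in the opposite arteries. Their sums in the grafts were between 244 and 906 FPKM, with CIDEC listed at 0 throughout. Graft day 14 replicate 4 had 860 FPKM of FABP4 and 46.6 FPKM of ADIPOQ. The day 30 call of FABP4 as higher was lost in 12 of 34 settings. The part of all these cells in the rise of the breakdown genes, and in that of the members, was not tested.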

How the data were processed

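The authors deposited FPKM for 24964 transcript rows in 20 libraries. Per the submitters' processing notes they used fastp, HISAT2, StringTie, RSEM and DESeq2, and versions and genome build are not given in the sources used here. No counts were used, so depth and counting error are unknown. Per gene, FPKM were summed, and a gene entered the fit where 4 or more libraries reached 1 FPKM. Group means were fitted in limma to log2(FPKM + 1) of the 20 libraries together, and variances were allowed to follow the mean level. Two-sided p-values were adjusted by Benjamini-Hochberg over all 8657 genes, threshold 0.05. Errors of log2 changes are limma's standard errors. The members, the lists and the other settings were chosen with earlier results of these data known.

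Members with a call against the opposite artery and a highest group mean of at least 10 FPKM, or a highest group mean of at least 100 FPKM, are given for every library, the others by range. Up to 5 genes of each list with the smallest adjusted p could be named, and PPIB, P3H1, LOXL1, MMP14, CTSK, MRC2 and DDR2 were always named. BMP1 and LOXL2 stayed below the filter, and P4HB and PCOLCE were not found by name. Of the 8657 genes, 6907 had a symbol in the table, 834 were named through the gene numbers of the RefSeq table of mOryCun1.1, and 916 had none. Vein columns were matched to libraries by name (V_n for Vn). Settings tried were other scalings (quantile, TPM, median-of-ratios), no filter or one of 5 FPKM, a pseudocount of 0.1, library weights, a fit of the compared groups alone, a block for the replicate number, leaving out each library, the opposite arteries of day 14 as 1 sample, mixture-like libraries left out, both, genes listed at 0 left out and, added after seeing the data, grafts of day 14 without replicates 1 and 2. A planned ratio of COL3A1 to COL1A2 was not computed, because COL3A1 stayed below the filter. The fit was also run on simulated data with independent noise, of the same spread in every group. The spread of these libraries differed between groups, so that run does not bear on how far the p-values hold. No sequences or coordinates are printed. Some marker and partner genes are not reported here. The software was limma 3.58.1 in R 4.3.3, with tables and plots from pandas 2.3.3, matplotlib 3.10.9, scipy 1.17.1 and numpy 2.4.6 under Python 3.11.15.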

Additional observations from a re-analysis of the deposited data

Results flagged for a closer look

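Among 95 member and group combinations of 4 libraries, 5 had 1 library far from the other 3 (Dixon's test, 95% level), 5.26%, and chance alone flags about 1 in 20. COL5A2 stood at 143.83 FPKM in opposite artery day 14 replicate 1, above the 3 others, which lay within 1 FPKM of each other. COL6A2 stood at 91.66 FPKM in opposite artery day 30 replicate 1. COL28A1 stood at 0.1 FPKM in graft day 14 replicate 1 and at 5.64 FPKM in vein replicate 4, the highest of each group. P4HA2 stood at 7.43 FPKM in graft day 30 replicate 4.

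The graft effect differed between day 30 and day 14 in a test of the difference for 3 members: PLOD1 by -0.701 (limma, adjusted p = 0.00827), PLOD3 by -0.524 (adjusted p = 0.0337) and COL13A1 by 0.629 (adjusted p = 0.0117).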

How the results depend on the processing

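Of the members that passed, 8 of 14 on day 14 and 9 of 13 on day 30 passed in each setting run for them (34, or 33 for COL13A1 and COL4A4), as did 7 of 11 for vein against artery, 9 of 17 and 10 of 14 for the grafts of day 14 and 30 against vein, and none of those between days. Among them, COL11A1 held for the grafts of both days against artery and against vein, and COL4A4 for the grafts of day 30 against vein. Both entered the test only through the grafts, so the filter favoured these calls. Leaving out 1 library at a time gave 13 to 14 members on day 14, 11 to 14 on day 30 and 2 to 5 for the change of the graft effect. It gave 2 to 7 for grafts between days, 1 to 2 for opposite arteries between days and 10 to 12 for vein. For grafts of day 14 and 30 against vein it gave 16 to 18 and 13 to 15. No share of all genes was set beside the counts of this section, so they describe the members alone.

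Counts moved by over 1.5 times as follows. With the opposite arteries of day 14 as 1 sample, which leaves fewer samples, day 14 had 9, the change of the graft effect 0 and the opposite arteries 0. With the mixture-like libraries out too, the counts were 8, 0, 0 (grafts between days), 0 (opposite arteries), 7 (vein) and 11 (graft day 14 against vein). Mixture-like libraries alone left 1 for the change of effect and 2 for grafts. TPM scaling gave 0, 2 and 3 for the change of effect, grafts and opposite arteries. Library weights gave 13, 15 and 5, the groups compared alone 2 for grafts and 2 for opposite arteries, and a filter of 5 FPKM gave 5 for the change of effect. Without graft day 14 replicates 1 and 2 there were 7, 10 and 2. The cause was not tested. COL12A1 reversed under library weights, to -0.943 for the change of effect and -0.835 for grafts between days.

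With the replicate number as a block, 14 and 12 members passed on days 14 and 30, 2 for the change of effect, 5 for grafts, 1 for opposite arteries, 11 for vein, and 17 and 14 for the grafts against vein. COL4A4 on day 30 (adjusted p = 0.0592) and the change of PLOD3 (0.0544) lost their calls, and COL14A1 passed for grafts between days (0.0441). Deviations of same-numbered graft and opposite artery correlated between -0.107 and 0.127 on day 14 and between -0.180 and 0.0630 on day 30. Of 8 grafts, 2 matched best with their own number. These values give no sign that the numbers pair the libraries, but they cannot exclude it. The opposite arteries of day 14 were nearly identical and leave little for such a match to rest on. The ratio of COL3A1 to COL1A2 was not run. Read depth is unknown, which limits what can be said of members listed near 0.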

Other observations

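ALDH18A1, which makes the precursor of proline, an amino acid that collagen is rich in, did not rise with the type I chains. It fell from a mean of 59.0 to 21.8 FPKM on day 14 (limma log2 change -1.42, SE 0.11, adjusted p = 9.03e-09) and from 45.5 to 19.4 FPKM on day 30 (-1.19, SE 0.11, adjusted p = 1.86e-07). Of 6 tested genes in the list for proline supply, 1 rose and 3 fell on day 14, where 36.5% and 17.0% of all genes did. On day 30, 0 rose and 3 fell, beside 26.0% and 11.6% of all genes.

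Ratios of listed levels were taken within each library. PLOD1 stood at 0.25 ± 0.05 of the level of PLOD2 in the opposite arteries of day 14 and at 1.28 ± 0.15 in the grafts, at 0.37 ± 0.03 and 1.21 ± 0.17 on day 30, and at 0.81 ± 0.13 in the vein (mean ± SD, n = 4 libraries). The lowest graft had a ratio of 1.03 and the highest opposite artery one of 0.41. COL1A2 stood at 4.07 ± 0.09 times COL5A2 in the opposite arteries of day 14 and at 10.0 ± 2.00 times in the grafts, at 7.69 ± 1.14 and 13.3 ± 1.25 times on day 30 and at 17.3 ± 1.37 times in the vein. A factor applied to a whole library leaves these ratios as they are. They set the levels of different genes beside each other as listed, were chosen after the values were seen and are given with no test.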
